A study of Mus musculus with 9 samples.

Results

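The lysosome genes described here are 42 of the 55359 genes in the deposited table of mouse lung RNA. They were chosen by the role of their proteins, with no threshold on measured values but with earlier results of these data known: 7 subunits of V1 and 8 of V0 with accessory proteins (together the proton pump, or V-ATPase), 15 hydrolases other than cathepsins, 3 further lumenal proteins, 6 membrane proteins and 3 transcription factors of the TFEB family. The list named 43 symbols, of which Limp2, an older name of Scarb2, had no row of its own. All 42 genes passed the expression filter, which asked for at least 1 FPKM (fragments counted per gene, scaled for exonic length and library total) in at least 3 libraries.

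Lung was taken from male C57BL/6J mice, aged 6 to 8 weeks in the design text, on day 28 after instillation into the trachea. Silica + ATL-III mice were given 5 mg of silica, a dust whose inhalation leads to silicosis, and intraperitoneal atractylenolide III (ATL-III), a plant sesquiterpene lactone, at a daily dose of 30 mg/kg. Silica mice were given the silica only, and Control mice saline only. Each group held 20 of the 60 mice and is represented by 3 libraries, numbered 1 to 3. No group had ATL-III without silica and none is said to have had a sham injection, so ATL-III and the injection cannot be told apart. The labels do not say whether a library is 1 mouse, so the tests measure the spread between libraries, which may be technical.

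Lysosomes degrade what cells engulf and what autophagy delivers. The V-ATPase acidifies them: the V1 sector in the cytosol hydrolyses ATP and turns a rotor, and the V0 sector in the membrane moves protons. Acid hydrolases work in that lumen, helper proteins present lipids to them, and membrane proteins guard the wall and export the products. TFEB, TFE3 and MITF are held in the cytosol when mTORC1 on the lysosome phosphorylates them and otherwise switch on lysosome genes through short E-box motifs. In lung, macrophages that take up dust and alveolar type 2 cells that store surfactant are rich in lysosomes or organelles related to them.

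Total counts ran from 16047175 to 17792481 per library. In bulk tissue a change in the number of cells of a type and a change in RNA per cell cannot be told apart. The 42 genes summed to 1729.7 to 1876 FPKM in Silica + ATL-III, 1969.5 to 3102 FPKM in Silica and 1537 to 1625 FPKM in Control. Library Silica 2 was the lowest of its group for 35 of the 42 genes (83.3%), against 29.6% of all tested genes, and Silica 1 was the highest for 30. The median coefficient of variation of the lysosome genes was 7.06% in Silica + ATL-III, 18.5% in Silica and 5.52% in Control, against 12.8%, 13.9% and 8.85% over all tested genes in the same groups. Silica 2 and Control 2 also had the highest neutrophil marker sums of their groups. The number of lysosome genes that rose in Silica over Control, 28 with all libraries, changed when 1 was left out. It was 20, 35 and 22 without Silica 1, 2 and 3, and 23, 21 and 19 without Control 1, 2 and 3. The number over all tested genes changed too, from 1408 with all libraries. It became 572, 2063 and 788 without Silica 1, 2 and 3, and 675, 703 and 528 without Control 1, 2 and 3.

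Marker lists of other cells were counted and summed in the same libraries. Of all tested genes, 9.11% were called higher and 7.81% lower in Silica over Control. The shares were 11.2% and 10.0% in Silica + ATL-III over Silica, and 9.14% and 6.71% in Silica + ATL-III over Control. Of 14 macrophage markers, 10 were called higher (71.4%) and 1 lower (7.14%) in Silica over Control. In Silica + ATL-III over Silica 2 were higher and 2 lower (14.3% each, near the shares over all genes), and 9 were higher (64.3%) in Silica + ATL-III over Control. Lyz2 made up 97.2% to 98.4% of their sum. The other 13 summed to 245 to 332 FPKM in Silica + ATL-III, 223 to 341 FPKM in Silica and 138 to 167 FPKM in Control, and Silica + ATL-III and Silica overlapped. Of 11 alveolar macrophage markers, 6 were called higher in Silica over Control (54.5%). In Silica + ATL-III over Silica 1 was higher (9.09%) and 3 lower (27.3%), and in Silica + ATL-III over Control 4 were higher (36.4%) and 1 lower (9.09%). They summed to 1376 to 2376 FPKM in Silica + ATL-III, 1282 to 2012 FPKM in Silica and 677 to 819 FPKM in Control, with 70.2% to 92.5% from Chil3. Without Chil3, the other 10 summed to 178 to 210 FPKM in Silica + ATL-III, 227 to 302 FPKM in Silica and 182 to 201 FPKM in Control. For these 10 the Silica libraries lay above all others, and Silica + ATL-III overlapped Control. Of 11 markers of lipid-associated macrophages (among them Gpnmb, Spp1 and Trem2), 9 were called higher in Silica over Control, 8 lower in Silica + ATL-III over Silica and 4 higher in Silica + ATL-III over Control. They summed to 1353 to 1546 FPKM in Silica + ATL-III, 2117 to 6378 FPKM in Silica and 1164 to 1299 FPKM in Control. Spp1 made up 12.3% to 23.5%, 30.5% to 62.4% and 7.34% to 9.03% of the sum in the same groups. The other 10 summed to 1150 to 1187, 1471 to 2395 and 1058 to 1200 FPKM, and Silica + ATL-III and Control overlapped. The 12 neutrophil markers summed to 30209.5 to 45685 FPKM in Silica + ATL-III, 1074 to 4826 FPKM in Silica and 598 to 3901 FPKM in Control. Of these, 4 were called higher in Silica over Control, 11 in Silica + ATL-III over Silica and all 12 in Silica + ATL-III over Control. Neutrophil sums were highest in Silica 2 among the Silica libraries (2157, 4826 and 1074 FPKM in Silica 1, 2 and 3) and in Control 2 among the Control libraries (633, 3901 and 598 FPKM in Control 1, 2 and 3).
Of 10 alveolar type 2 markers, 5 were called higher in Silica over Control (50.0%) and 3 lower in Silica + ATL-III over Silica (30.0%). In Silica + ATL-III over Control 1 was higher (10.0%, near the 9.14% over all genes). Sftpc made up 84.6% to 87.9% of their sum, and the other 9 summed to 3725 to 4843 FPKM in Silica + ATL-III, 4516 to 4839 FPKM in Silica and 2813 to 3779 FPKM in Control. In Silica over Control all 5 smooth muscle, 4 of 5 cardiac muscle, 3 of 8 endothelial and 2 of 8 fibroblast markers were called lower. So were 2 of 2 tested adipocyte markers and 2 of 7 alveolar type 1 markers, of which 1 other was called higher. When 1 library was left out, the calls of Acta2, Des and Pdgfra were lost in 7, 5 and 5 of 9 fits. With ATL-III, 2 smooth muscle and 4 endothelial markers were called higher and 1 endothelial, 5 fibroblast and all 6 B cell markers lower in Silica + ATL-III over Silica. The calls of Tagln and Tie1 there were each lost in 7 of 9 fits that left out 1 library. No listed marker was at 0 in all libraries. Silica 2 was the lowest of its group for the summed lipid-associated macrophage markers and for the macrophage markers with or without Lyz2, and Silica 1 the highest for the lipid-associated ones. The part of these cells in the changes of the lysosome genes was not tested.

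**Figure D1:**
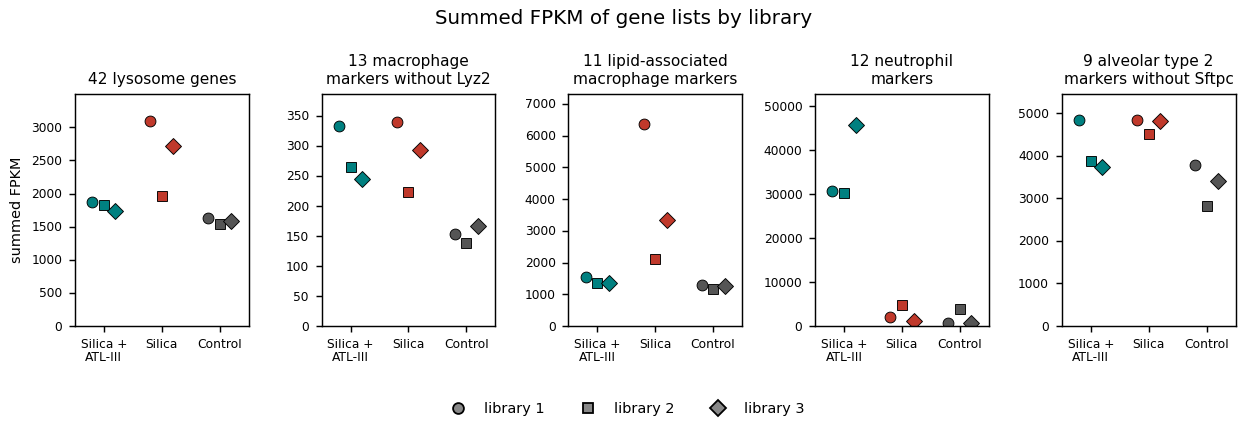
Summed FPKM of the 42 lysosome genes and of 4 cell type marker lists (without Lyz2 for macrophages and Sftpc for alveolar type 2 cells) in each library (y axes, each from 0), by group (x axis); each point is 1 library. The Silica libraries lie above those of the other groups for the lysosome genes (1729.7 to 1876, 1969.5 to 3102 and 1537 to 1625 FPKM in Silica + ATL-III, Silica and Control), and the Silica + ATL-III libraries lie above the others for neutrophil markers.

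The design implies 3 comparisons: Silica over Control, Silica + ATL-III over Silica, and Silica + ATL-III over Control. Unless another tool is named, a gene that rose, fell or was called passed an adjusted p of 0.05 in edgeR's quasi-likelihood test with TMM scaling. Of the 42 lysosome genes, 28 rose in Silica over Control and none fell, where edgeR called 9.11% of all 15459 tested genes higher and 7.81% lower. Their median log2 fold change was 0.66, against -0.01 for all tested genes. At an unadjusted p under 0.05, edgeR gave 34 higher and 0 lower. At an adjusted p under 0.05, DESeq2 called 32 higher and 0 lower, and limma on log2(FPKM + 0.5) 22 and 0. Of all 15459 tested genes, DESeq2 called 1870 higher and 1501 lower, and limma 820 and 1620. With ATL-III, 18 fell and 1, Atp6v0a1, rose in Silica + ATL-III over Silica, where 10.0% of all tested genes were called lower and 11.2% higher. The median log2 fold change was -0.41, against -0.00 for all tested genes. Over Control, 10 rose and none fell in Silica + ATL-III, where 9.14% of all tested genes were called higher and 6.71% lower, and the medians were 0.29 and -0.01. At an unadjusted p under 0.05 this last comparison had 16 higher and 0 lower by edgeR. At an adjusted p under 0.05 DESeq2 called 11 higher and 0 lower there, and 1650 higher and 1239 lower of all tested genes. Neighbouring comparisons share libraries, so their calls are not independent.

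The number that fell in Silica + ATL-III over Silica was 9 without Silica + ATL-III 2, 10 without Silica 1, 28 without Silica 2 and 11 without Silica 3. Of all tested genes 1553 fell with all libraries, and 826, 923, 1947 and 914 in the same fits. The number that rose in Silica + ATL-III over Control was 4 without Control 2, 5 without Silica + ATL-III 1, Control 1 or Control 3, and 6 without Silica + ATL-III 2. Of all tested genes 1413 rose there with all libraries, and 1045, 1170, 943, 891 and 1117 in the same fits, in that order. TPM scaling (each library set to the same summed FPKM), which moved the median of all tested genes to -0.31 in that comparison, gave 4 higher and 3 lower (Asah1, Mcoln1 and Npc1), and the lysosome genes' median turned to -0.02. Of all 15459 tested genes, TPM scaling called 779 higher and 5339 lower there. Limma at each of 3 pseudocounts called 4 higher there, and 948 to 966 of all tested genes. Under every setting and every left-out library, 19 of the 28, 10 of the 19 and 4 of the 10 calls were kept in the order of the comparisons above.

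**Figure D2:**
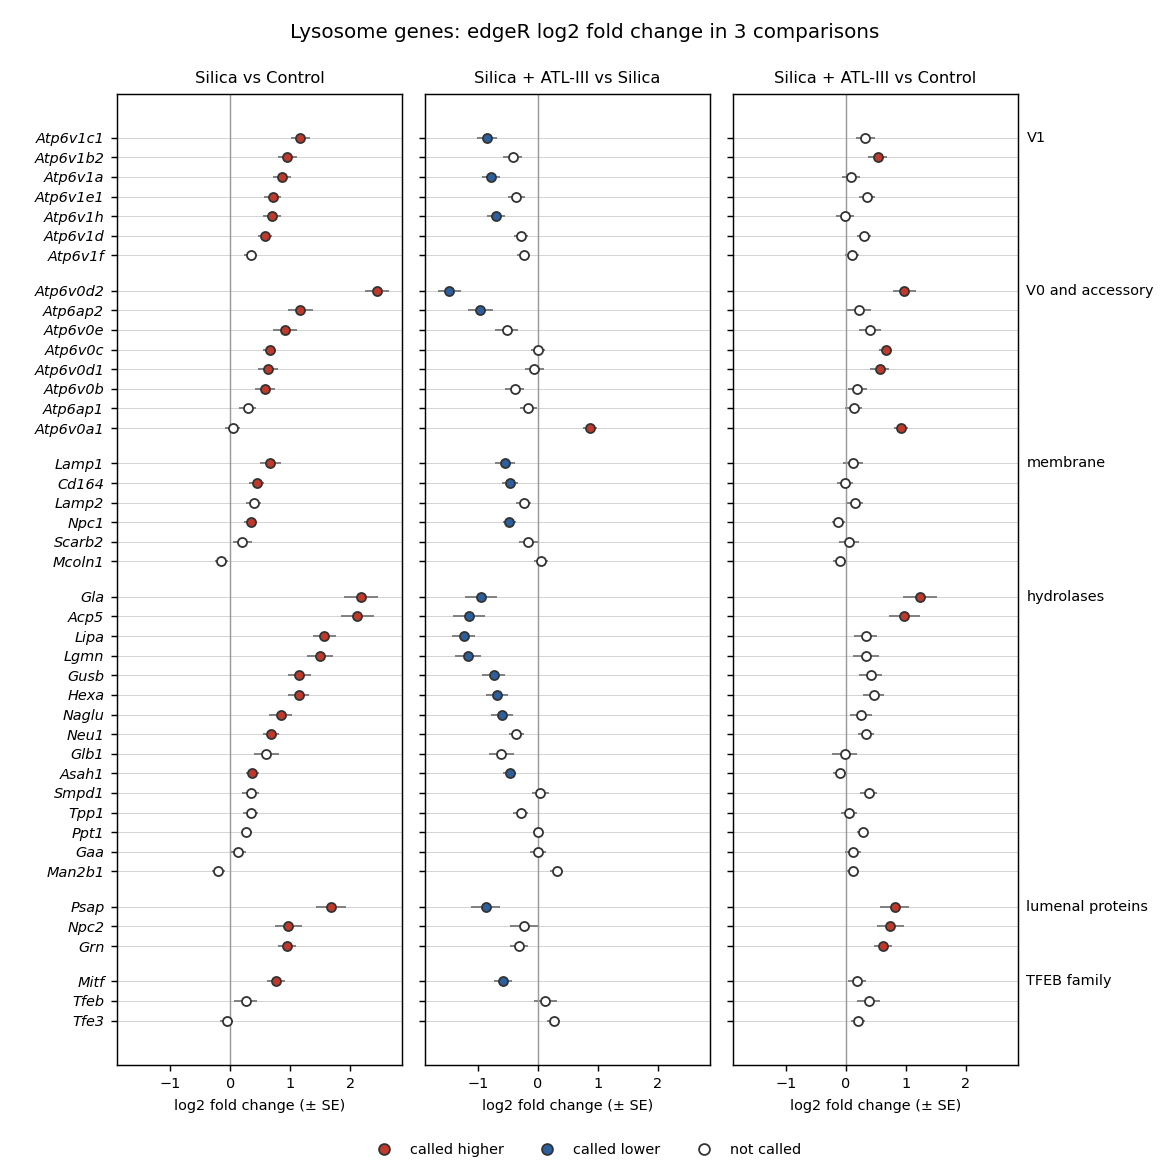
Log2 fold changes by edgeR (x axis, ± SE) of the 42 lysosome genes (rows, grouped by role) in 3 comparisons; filled points were called at an adjusted p under 0.05. In Silica over Control 28 points are filled to the right of 0, from Npc1 (0.34) to Atp6v0d2 (2.45), and in Silica + ATL-III over Silica 18 are filled to the left and 1, Atp6v0a1 (0.87), to the right.

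The TFEB family binds the E-box CACGTG, best within TCACGTGA and within the longer CLEAR palindrome (TCACGTGA with G before it and C after it), and MITF also binds TCATGTG. Promoters of 36 of the 42 genes were in the RefSeq table for GRCm38.p6, as windows of 300 bases (250 before the start and 50 after), and Asah1, Atp6v0d2, Atp6v1b2, Atp6v1c1, Atp6v1h and Npc1 had no entry. Each motif was searched on both strands; the longer E-box motifs contain CACGTG, and TCATGTG overlaps none of the others by definition. CACGTG stood in windows of 12 of the 36 genes (33.3%), against 11.3% of 10735 tested genes with a window. TCACGTGA stood in 6 (16.7%, against 2.11%): Atp6v0d1, Atp6v0e, Atp6v1a, Cd164, Gla and Mcoln1. The CLEAR palindrome stood in 0, against 0.745%, and TCATGTG in 7 (19.4%, against 2.79%). Of the 22 genes with a window that rose in Silica over Control, 9 held CACGTG, and of the 14 that were not called, 3 did (Gaa, Glb1 and Mcoln1). A match describes letters in the window and is not a binding site.
The windows printed are those of Gla, the hydrolase with the largest fold change, of Lamp1, which held the most copies of CACGTG, of Atp6v0d1, and of Mcoln1, which held the motif and was not called. They lie at chrX:134600956-134601255 (minus strand), chr8:13158911-13159210 (plus strand), chr8:105566015-105566314 (minus strand) and chr8:3500269-3500568 (plus strand) of GRCm38.p6. Each is written 5′ to 3′ along its gene, with TCACGTGA, or CACGTG where the longer motif is absent, in capitals.
Gla: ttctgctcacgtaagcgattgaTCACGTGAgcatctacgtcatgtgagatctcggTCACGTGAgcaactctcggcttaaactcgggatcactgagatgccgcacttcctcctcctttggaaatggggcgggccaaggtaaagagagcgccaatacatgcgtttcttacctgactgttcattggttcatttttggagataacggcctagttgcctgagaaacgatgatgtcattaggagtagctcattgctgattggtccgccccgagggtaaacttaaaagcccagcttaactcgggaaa
Lamp1: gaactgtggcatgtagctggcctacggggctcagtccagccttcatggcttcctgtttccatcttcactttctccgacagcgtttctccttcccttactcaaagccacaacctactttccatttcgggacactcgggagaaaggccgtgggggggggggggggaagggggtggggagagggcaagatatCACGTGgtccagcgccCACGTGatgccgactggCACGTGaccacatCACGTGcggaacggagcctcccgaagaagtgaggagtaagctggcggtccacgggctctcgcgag
Atp6v0d1: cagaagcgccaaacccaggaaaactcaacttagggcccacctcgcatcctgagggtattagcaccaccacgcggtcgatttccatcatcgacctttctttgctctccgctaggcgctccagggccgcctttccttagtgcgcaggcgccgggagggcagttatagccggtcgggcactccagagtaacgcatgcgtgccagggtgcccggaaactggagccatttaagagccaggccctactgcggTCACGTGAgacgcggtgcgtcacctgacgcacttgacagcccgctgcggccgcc
Mcoln1: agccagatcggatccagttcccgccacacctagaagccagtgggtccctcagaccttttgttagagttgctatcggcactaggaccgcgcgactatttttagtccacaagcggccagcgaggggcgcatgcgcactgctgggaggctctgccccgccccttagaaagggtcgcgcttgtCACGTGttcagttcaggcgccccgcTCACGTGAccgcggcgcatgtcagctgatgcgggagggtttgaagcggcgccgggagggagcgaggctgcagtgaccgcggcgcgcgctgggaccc
Gla held TCACGTGA at 2 places far upstream and Lamp1 held CACGTG at 4 places near the start. Atp6v0d1 had 1 copy of TCACGTGA at the start itself, and Mcoln1 had 1 copy of TCACGTGA and 1 further CACGTG.

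Of the 7 V1 subunits, 6 rose in Silica over Control (85.7%, against 9.11% of all tested genes). Of these, 3 fell in Silica + ATL-III over Silica (42.9% of the 7, against 10.0%). Atp6v1c1, subunit C, which couples V1 to V0, had 14.2, 14.1 and 14.8 FPKM in Silica + ATL-III, 30.8, 20.1 and 27.4 FPKM in Silica, and 13.9, 11.6 and 12.1 FPKM in Control. The Silica libraries lay above all others, and the other groups lay close together without overlapping. Its log2 fold change was 1.17 ± 0.16, adjusted p = 0.0011 in Silica over Control, -0.85 ± 0.16, adjusted p = 0.0033 in Silica + ATL-III over Silica, and 0.32 ± 0.16 in Silica + ATL-III over Control (adjusted p = 0.2, not called). Atp6v1a, the catalytic subunit A, and Atp6v1h, subunit H, which restrains free V1, had the same calls. Atp6v1a averaged 32.6 ± 0.414 FPKM in Silica + ATL-III, 57.0 ± 12.2 FPKM in Silica and 33.6 ± 0.980 FPKM in Control (SD, n = 3 each), and its log2 fold change was 0.87 ± 0.15, adjusted p = 0.0047 in Silica over Control and -0.79 ± 0.15, adjusted p = 0.0039 in Silica + ATL-III over Silica. Atp6v1h averaged 9.22 ± 0.561 FPKM in Silica + ATL-III, 15.1 ± 3.22 FPKM in Silica and 10.1 ± 0.512 FPKM in Control, with log2 fold changes of 0.69 ± 0.15 and -0.70 ± 0.15 in the same comparisons.
The other 3 that rose after silica were Atp6v1b2 (0.95 ± 0.16 on the log2 scale), the nucleotide-binding subunit B, Atp6v1e1 (0.71 ± 0.14) of the peripheral stalk, and Atp6v1d (0.58 ± 0.12) of the rotor. None of them was called by edgeR with TMM in Silica + ATL-III over Silica (log2 fold changes -0.42 ± 0.16, -0.36 ± 0.14 and -0.28 ± 0.12). TPM scaling called all 3 lower there, and DESeq2 and edgeR without the filter called Atp6v1b2 lower. By edgeR on all 9 libraries, Atp6v1b2 was the 1 V1 gene called higher in Silica + ATL-III over Control (0.53 ± 0.16, adjusted p = 0.043). That was 14.3% of the V1 genes, against 9.14% of all tested genes. The call was lost without any 1 of the 6 libraries compared (adjusted p up to 0.14) and under TPM scaling, library totals and limma. With only those 6 libraries, edgeR called Atp6v1c1, Atp6v1d and Atp6v1e1 higher there too. Atp6v1f, the rotor partner of Atp6v1d, averaged 90.4 ± 10.4 FPKM in Silica + ATL-III, 108 ± 7.25 FPKM in Silica and 91.9 ± 3.74 FPKM in Control and missed the threshold after silica (log2 fold change 0.34 ± 0.11, adjusted p = 0.053). It passed with DESeq2, DESeq2 size factors, only the 6 libraries and the replicate block. TPM scaling called Atp6v1f lower in Silica + ATL-III over Silica. Without Silica 2, 6 V1 genes fell in Silica + ATL-III over Silica and 3 rose over Control.

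Of the 8 V0 and accessory genes, 6 rose in Silica over Control (75%, against 9.11% of all tested genes). In Silica + ATL-III over Silica 2 fell (25%, against 10.0%) and 1 rose (12.5%, near the 11.2% over all genes). In Silica + ATL-III over Control 4 rose (50%, against 9.14%). The V0 gene Atp6v0d2 (ENSMUSG00000028238, chromosome 4) had the largest fold change of the 42 genes in Silica over Control and in Silica + ATL-III over Silica. It encodes the d2 isoform of the subunit that joins the rotor to the proteolipid ring, known in mouse from kidney and osteoclasts. Its level was 37.8, 34.2 and 37.5 FPKM in Silica + ATL-III, 124, 69.6 and 115 FPKM in Silica, and 21.9, 20.0 and 18.8 FPKM in Control. The 3 groups did not overlap, and Silica 2 lay well below the other Silica libraries. In log2 terms Atp6v0d2 changed by 2.45 ± 0.20, adjusted p = 6.7e-05 (5.48-fold) in Silica over Control, -1.48 ± 0.19, adjusted p = 0.00046 in Silica + ATL-III over Silica, and 0.97 ± 0.19, adjusted p = 0.0052 in Silica + ATL-III over Control. No left-out library and no other setting ended these calls.
Atp6v0d1 (ENSMUSG00000013160, chromosome 8), the d isoform found in most tissues, had 32.6, 37.1 and 33.9 FPKM in Silica + ATL-III, 43.0, 29.3 and 37.1 FPKM in Silica, and 28.1, 21.3 and 26.7 FPKM in Control. Silica + ATL-III and Silica overlapped, and both lay above Control. For Atp6v0d1 the log2 fold change was 0.63 ± 0.16, adjusted p = 0.023 in Silica over Control, -0.06 ± 0.16, adjusted p = 0.81 (not called) in Silica + ATL-III over Silica, and 0.56 ± 0.16, adjusted p = 0.033 in Silica + ATL-III over Control. The call was lost in Silica over Control without Silica 1, Silica 3, Control 2 or Control 3 (adjusted p up to 0.086), in Silica + ATL-III over Control without Silica + ATL-III 2, Silica + ATL-III 3, Control 2 or Control 3 (adjusted p up to 0.13), in both under TPM scaling and limma, and in Silica + ATL-III over Control with library totals.
Of the summed FPKM of both isoforms, Atp6v0d2 made up 53.6%, 47.9% and 52.6% in the Silica + ATL-III libraries, 74.2%, 70.4% and 75.6% in the Silica libraries and 43.8%, 48.4% and 41.3% in the Control libraries. The Silica libraries lay above all others, and Silica + ATL-III and Control overlapped. The shares are a description with no test. Of 10 osteoclast markers, which mark cells rich in Atp6v0d2, Acp5 and Ctsk, 6 passed the expression filter. Tnfrsf11a, the receptor for RANKL, rose in Silica over Control (0.81 ± 0.17, adjusted p = 0.012) and fell in Silica + ATL-III over Silica (-0.66 ± 0.17, adjusted p = 0.019), with means of 1.08 ± 0.0611 FPKM in Silica + ATL-III, 1.74 ± 0.117 FPKM in Silica and 1.06 ± 0.195 FPKM in Control. The first call was lost without Control 3 (adjusted p up to 0.057). The second was lost without Silica + ATL-III 2 or Silica 1 (adjusted p up to 0.066). Dcstamp, a fusion protein below the filter, had 0.23, 0.16 and 0.34 FPKM in Silica + ATL-III, 2.07, 0.58 and 1.16 FPKM in Silica, and 0.16, 0.05 and 0.02 FPKM in Control. Its Silica libraries lay above all others. Car2 fell in Silica + ATL-III over Silica (-0.78 ± 0.17, adjusted p = 0.0082), and Nfatc1 and Src were not called. Mmp9, which neutrophils also make, rose in Silica + ATL-III over Silica (3.33 ± 0.46, adjusted p = 0.00063), with 17.0, 26.3 and 27.4 FPKM in Silica + ATL-III, 2.42, 3.18 and 1.57 FPKM in Silica, and 1.48, 6.32 and 1.85 FPKM in Control, and so did Itgb3 (0.72 ± 0.20, adjusted p = 0.028). The Itgb3 call was lost without Silica + ATL-III 1 or 2 or any 1 Silica library (adjusted p up to 0.12). The 10 genes summed to 47.8 to 63.0 FPKM in Silica + ATL-III, 45.2 to 48.4 FPKM in Silica and 39.2 to 45.6 FPKM in Control. Car2 made up 23.3% to 32.7%, 56.2% to 60.4% and 51.7% to 58.6% of the sum in the same groups. The other 9 summed to 36.3 to 47.6, 17.9 to 20.5 and 16.5 to 22.0 FPKM. Calcr, Ocstamp and Oscar averaged 0.137, 0.180 and 0.200 FPKM in Silica + ATL-III, 0.277, 0.0367 and 0.187 FPKM in Silica, and 0.267, 0.0233 and 0.210 FPKM in Control. The part of such cells in these changes was not tested.

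Atp6v0a1 was the 1 lysosome gene that rose in Silica + ATL-III over Silica. It encodes an a subunit, which holds the paths by which protons enter and leave, in an isoform best known from neurons. It had 21.5, 20.2 and 17.7 FPKM in Silica + ATL-III, 9.47, 12.8 and 10.6 FPKM in Silica, and 12.1, 12.0 and 9.98 FPKM in Control. The Silica + ATL-III libraries lay above all others, and Silica and Control overlapped. Its log2 fold change was 0.87 ± 0.12, adjusted p = 0.00076 in Silica + ATL-III over Silica, 0.92 ± 0.12, adjusted p = 0.00048 in Silica + ATL-III over Control and 0.04 ± 0.12, adjusted p = 0.84 (not called) in Silica over Control. Both calls were kept under every setting and left-out library. The summed neutrophil markers were also highest in Silica + ATL-III (30209.5 to 45685 FPKM in Silica + ATL-III, 1074 to 4826 FPKM in Silica and 598 to 3901 FPKM in Control), and their part in this change was not tested. Tcirg1, the a3 isoform of osteoclasts and lysosomes and not among the 42 genes, had 17.4, 14.0 and 18.0 FPKM in Silica + ATL-III, 24.5, 20.9 and 24.0 FPKM in Silica, and 16.6, 17.6 and 17.2 FPKM in Control. It rose in Silica over Control (0.53 ± 0.12, adjusted p = 0.015, lost without Silica 1, Control 1 or Control 3, adjusted p up to 0.057). It fell in Silica + ATL-III over Silica (-0.47 ± 0.12, adjusted p = 0.017, lost without Silica + ATL-III 2, Silica 1 or Silica 3, adjusted p up to 0.066). Of the summed FPKM of the 4 a isoforms, Tcirg1 made up 36.2% ± 5.46 in Silica + ATL-III, 55.8% ± 4.10 in Silica and 45.6% ± 1.82 in Control (SD, n = 3 each).

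**Figure D3:**
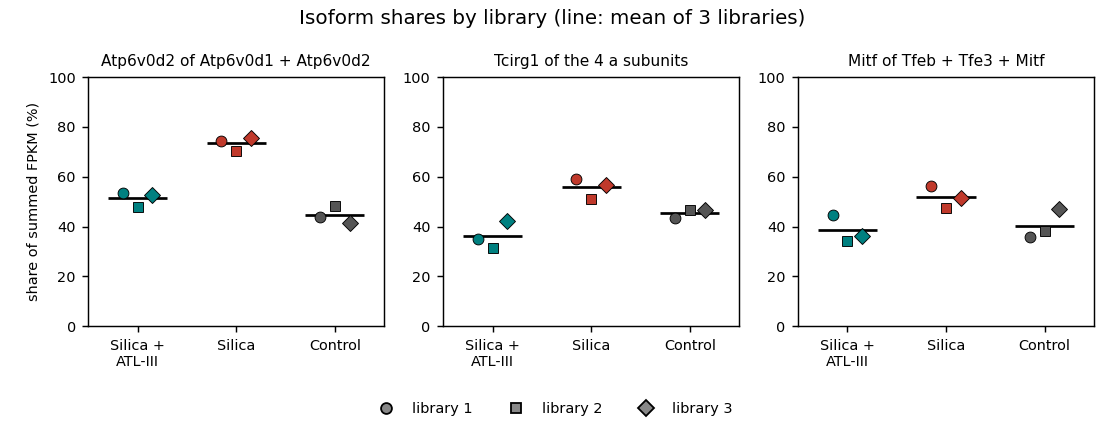
Share of summed FPKM (y axis, percent) taken by Atp6v0d2 among the d subunits, by Tcirg1 among the a subunits and by Mitf among the TFEB family, by group (x axis); each point is 1 library and the line is the mean of 3. Each share is highest in Silica, with means of 73.4%, 55.8% and 51.7%.

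Among the other V0 and accessory genes, Atp6ap2, the (pro)renin receptor, which binds the pump, had 49.8, 45.9 and 47.5 FPKM in Silica + ATL-III, 125, 62.5 and 92.4 FPKM in Silica, and 44.8, 48.5 and 40.8 FPKM in Control. The Silica libraries lay above the rest and spread widely, and Silica + ATL-III overlapped Control. Atp6ap2 had a log2 fold change of 1.17 ± 0.21, adjusted p = 0.0053 in Silica over Control and -0.96 ± 0.21, adjusted p = 0.0078 in Silica + ATL-III over Silica. Atp6v0c, the proteolipid of the ring, had 17.1, 16.5 and 14.5 FPKM in Silica + ATL-III, 17.8, 15.6 and 15.2 FPKM in Silica, and 11.1, 11.4 and 10.6 FPKM in Control. Silica + ATL-III and Silica overlapped, and both lay above Control. The log2 fold change of Atp6v0c was 0.66 ± 0.11, adjusted p = 0.0039 in Silica over Control, 0.66 ± 0.11, adjusted p = 0.0018 in Silica + ATL-III over Control and 0.00 ± 0.11, adjusted p = 0.98 (not called) in Silica + ATL-III over Silica. Atp6v0c and Atp6v0d1 were thus higher than Control in both silica groups, whereas Atp6ap2 was called higher in Silica over Control and not in Silica + ATL-III over Control (0.21 ± 0.21, adjusted p = 0.53).
Atp6v0b, another ring proteolipid, averaged 83.9 ± 12.1 FPKM in Silica + ATL-III, 111 ± 20.0 FPKM in Silica and 79.8 ± 7.00 FPKM in Control, and Atp6v0e, a small membrane subunit, 60.1 ± 9.96 FPKM in Silica + ATL-III, 86.7 ± 22.8 FPKM in Silica and 49.4 ± 4.85 FPKM in Control. Both rose in Silica over Control (0.58 ± 0.16, adjusted p = 0.031, and 0.92 ± 0.20, adjusted p = 0.012) and were called in no other comparison by edgeR with TMM. TPM scaling and edgeR without the filter called both lower in Silica + ATL-III over Silica. DESeq2 called Atp6v0e lower there, and edgeR without the filter called Atp6v0e higher in Silica + ATL-III over Control. After silica the Atp6v0b call was lost without Silica 1, Silica 3, Control 1, Control 2 or Control 3 (adjusted p up to 0.12), under TPM scaling, with limma and with the replicate block. The Atp6v0e call was lost without Control 3 (adjusted p up to 0.053). Without Control 3, 3 V0 and accessory genes rose after silica in place of 6, and without Silica 2, 5 fell in Silica + ATL-III over Silica in place of 2. Atp6ap1, the accessory protein Ac45, averaged 55.7 ± 5.36 FPKM in Silica + ATL-III, 63.1 ± 12.0 FPKM in Silica and 55.5 ± 0.491 FPKM in Control and passed in no comparison.

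Of the 15 hydrolases, 9 rose in Silica over Control (60.0%, against 9.11% of all tested genes). In Silica + ATL-III over Silica 8 fell (53.3%, against 10.0%). In Silica + ATL-III over Control 2 rose (13.3%, against 9.14%), a share near that over all genes. Gla (ENSMUSG00000031266, chromosome X), alpha-galactosidase A, removes terminal galactose from globotriaosylceramide and is the enzyme lacking in Fabry disease. It had 8.74, 5.85 and 7.68 FPKM in Silica + ATL-III, 20.4, 8.71 and 14.3 FPKM in Silica, and 3.58, 3.53 and 3.23 FPKM in Control. All Silica libraries lay above Control, and the lowest, Silica 2, stood beside the highest of Silica + ATL-III, so that these groups overlapped. Its log2 fold change was 2.18 ± 0.28, adjusted p = 0.00082 (4.53-fold) in Silica over Control, -0.95 ± 0.26, adjusted p = 0.024 in Silica + ATL-III over Silica and 1.23 ± 0.28, adjusted p = 0.01 in Silica + ATL-III over Control. Acp5, the tartrate-resistant acid phosphatase of osteoclasts and macrophages, had 13.9, 11.2 and 13.3 FPKM in Silica + ATL-III, 37.2, 15.8 and 32.6 FPKM in Silica, and 6.78, 7.12 and 7.36 FPKM in Control. The 3 groups did not overlap. Acp5 had a log2 fold change of 2.12 ± 0.27, adjusted p = 0.00076 in Silica over Control, -1.15 ± 0.26, adjusted p = 0.0088 in Silica + ATL-III over Silica and 0.97 ± 0.26, adjusted p = 0.028 in Silica + ATL-III over Control.
Lipa, lysosomal acid lipase, which splits cholesteryl esters and triglycerides, had 7.45, 7.28 and 7.36 FPKM in Silica + ATL-III, 22.4, 12.3 and 18.0 FPKM in Silica, and 6.65, 5.54 and 6.94 FPKM in Control. The Silica + ATL-III libraries lay within a narrow band just above Control and below every Silica library. For Lipa the log2 fold change was 1.57 ± 0.19, adjusted p = 0.00072 in Silica over Control, -1.24 ± 0.19, adjusted p = 0.0013 in Silica + ATL-III over Silica and 0.33 ± 0.19, adjusted p = 0.29 (not called) in Silica + ATL-III over Control. Lgmn, legumain, a protease that cuts after asparagine and matures cathepsins, had 48.0, 39.7 and 39.9 FPKM in Silica + ATL-III, 124, 60.6 and 104 FPKM in Silica, and 36.6, 35.8 and 37.8 FPKM in Control. Its groups did not overlap, and Silica 2 was again far below the other Silica libraries. The log2 fold change of Lgmn was 1.50 ± 0.22, adjusted p = 0.0019 in Silica over Control, -1.17 ± 0.22, adjusted p = 0.0035 in Silica + ATL-III over Silica and 0.33 ± 0.22, adjusted p = 0.33 (not called) in Silica + ATL-III over Control. With only the 6 libraries compared, edgeR called Lgmn higher in that last comparison. Of these calls of 4 hydrolases, that of Gla in Silica + ATL-III over Silica was lost without Silica + ATL-III 2, Silica 1 or Silica 3 (adjusted p up to 0.1). That of Acp5 in Silica + ATL-III over Control was lost without Silica + ATL-III 1, Silica + ATL-III 3, Control 1, Control 2 or Control 3 (adjusted p up to 0.085), and under TPM scaling and limma.

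**Figure D4:**
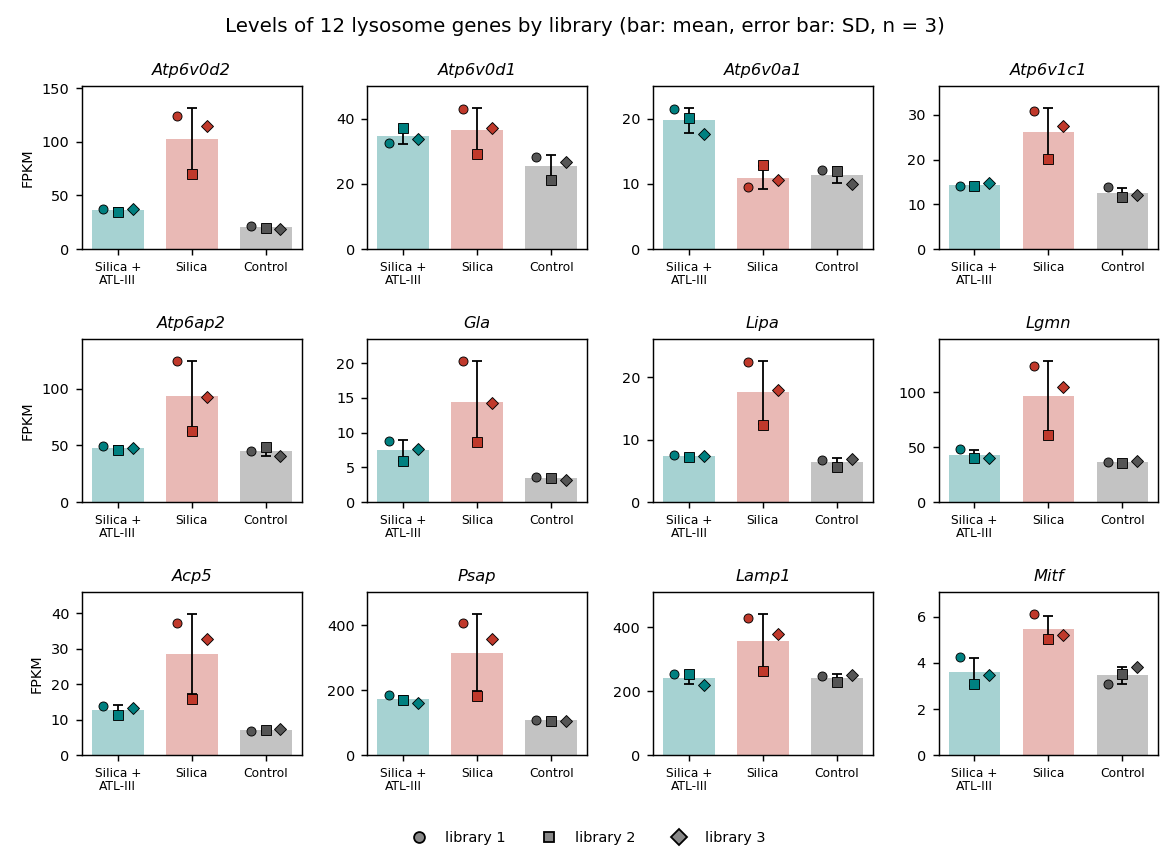
FPKM (y axes, each from 0) of 12 lysosome genes by group (x axis); each point is 1 library, bars are means and error bars SD (n = 3). Silica 2 is the lowest Silica library in 11 of the 12 panels, all but Atp6v0a1, whose Silica + ATL-III libraries (17.7 to 21.5 FPKM) lie above all others.

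The other 5 hydrolases that rose after silica were Gusb, Hexa, Naglu, Neu1 and Asah1. Gusb, beta-glucuronidase, averaged 10.3 ± 0.291 FPKM in Silica + ATL-III, 17.3 ± 5.30 FPKM in Silica and 8.44 ± 0.220 FPKM in Control, and Hexa, the alpha subunit of beta-hexosaminidase, 43.8 ± 2.60 FPKM in Silica + ATL-III, 70.8 ± 19.1 FPKM in Silica and 34.6 ± 1.57 FPKM in Control (SD, n = 3 each). Both rose in Silica over Control (1.15 ± 0.19, adjusted p = 0.0039, and 1.14 ± 0.18, adjusted p = 0.0027) and fell in Silica + ATL-III over Silica (-0.74 ± 0.19, adjusted p = 0.018, and -0.68 ± 0.18, adjusted p = 0.018). In Silica + ATL-III over Control, edgeR called Gusb and Hexa higher with only the 6 libraries and without the filter. Naglu, which acts on heparan sulfate, averaged 3.72 ± 0.519 FPKM in Silica + ATL-III, 5.68 ± 1.25 FPKM in Silica and 3.41 ± 0.0808 FPKM in Control and had the same calls (0.84 ± 0.19, adjusted p = 0.015, and -0.60 ± 0.19, adjusted p = 0.042). Neu1, the lysosomal sialidase, averaged 10.7 ± 0.656 FPKM in Silica + ATL-III, 13.8 ± 2.06 FPKM in Silica and 9.25 ± 0.259 FPKM in Control and rose in Silica over Control (0.68 ± 0.13, adjusted p = 0.0068). It missed the threshold in Silica + ATL-III over Silica (-0.36 ± 0.13, adjusted p = 0.065), where TPM scaling and library totals called it lower. With only the 6 libraries, edgeR called Neu1 higher in Silica + ATL-III over Control. Asah1, acid ceramidase, averaged 74.3 ± 4.41 FPKM in Silica + ATL-III, 104 ± 7.05 FPKM in Silica and 86.3 ± 4.79 FPKM in Control, with log2 fold changes of 0.37 ± 0.11, adjusted p = 0.04 in Silica over Control and -0.47 ± 0.11, adjusted p = 0.011 in Silica + ATL-III over Silica.
Several of these calls were lost when 1 library was left out. Those of Silica + ATL-III over Silica were lost for Gusb without Silica + ATL-III 1, Silica + ATL-III 2, Silica 1 or Silica 3 (adjusted p up to 0.057), for Hexa without Silica + ATL-III 2, Silica 1 or Silica 3 (adjusted p up to 0.068), for Asah1 without Silica + ATL-III 2 (adjusted p up to 0.051), and for Naglu without any library except Silica 2 (adjusted p up to 0.16), with only the 6 libraries and with the replicate block. In Silica over Control they were lost for Naglu without Silica 1 or Control 3 (adjusted p up to 0.057), and for Asah1 without Silica 1, Silica 3, Control 1, Control 2 or Control 3 (adjusted p up to 0.13) and under TPM scaling, library totals, limma and the replicate block. The number of hydrolases that fell in Silica + ATL-III over Silica was 3 without Silica + ATL-III 2 and 4 without Silica 1 or Silica 3. The number that rose in Silica + ATL-III over Control was 1 without Silica + ATL-III 1 or any 1 Control library, 6 without Silica 1 and 5 without Silica 2.
The remaining 6 hydrolases were called in no comparison by edgeR with TMM. Glb1, beta-galactosidase, averaged 3.76 ± 0.569 FPKM in Silica + ATL-III, 5.80 ± 1.54 FPKM in Silica and 4.13 ± 0.401 FPKM in Control, with log2 fold changes of 0.60 ± 0.21, adjusted p = 0.066 in Silica over Control and -0.61 ± 0.21, adjusted p = 0.054 in Silica + ATL-III over Silica. DESeq2 and edgeR without the filter called it in both comparisons, and TPM scaling and library totals in Silica + ATL-III over Silica. Ppt1, which removes palmitate from proteins, averaged 23.2 ± 0.401 FPKM in Silica + ATL-III, 23.4 ± 1.22 FPKM in Silica and 20.7 ± 0.767 FPKM in Control, with log2 fold changes of 0.27 ± 0.09, adjusted p = 0.06 in Silica over Control and 0.28 ± 0.09, adjusted p = 0.062 in Silica + ATL-III over Control, and DESeq2 called it higher in both. Without the filter, edgeR called Smpd1 higher in Silica + ATL-III over Control, and with only the 6 libraries it called Ppt1 higher there. Smpd1, acid sphingomyelinase, averaged 13.6 ± 1.85 FPKM in Silica + ATL-III, 13.4 ± 1.74 FPKM in Silica and 11.3 ± 0.986 FPKM in Control, and Tpp1, a tripeptidyl peptidase, 20.8 ± 3.16 FPKM in Silica + ATL-III, 25.7 ± 2.54 FPKM in Silica and 21.8 ± 1.26 FPKM in Control. Gaa, the glycogen-degrading alpha-glucosidase, differed least, at 5.46 ± 0.434 FPKM in Silica + ATL-III, 5.53 ± 0.650 FPKM in Silica and 5.45 ± 0.389 FPKM in Control. Man2b1, lysosomal alpha-mannosidase, averaged 8.12 ± 0.386 FPKM in Silica + ATL-III, 6.63 ± 0.364 FPKM in Silica and 8.17 ± 1.15 FPKM in Control, lowest in Silica (log2 fold change -0.20 ± 0.11, adjusted p = 0.21 in Silica over Control), and TPM scaling called it lower there. TPM scaling called 3451 of the 15459 tested genes lower in Silica over Control. In Silica + ATL-III over Silica the log2 fold change of Man2b1 was 0.31 ± 0.11, adjusted p = 0.06.

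All 3 lumenal proteins without an enzyme activity of their own rose in both silica groups over Control. Psap, the precursor of the saposins that present sphingolipids to hydrolases, had 184, 171 and 161 FPKM in Silica + ATL-III, 409, 181 and 359 FPKM in Silica, and 109, 105 and 106 FPKM in Control. Silica 2 lay inside the range of Silica + ATL-III, and Control lay below all. The log2 fold change of Psap was 1.68 ± 0.25, adjusted p = 0.0019 in Silica over Control, -0.87 ± 0.24, adjusted p = 0.024 in Silica + ATL-III over Silica and 0.81 ± 0.24, adjusted p = 0.041 in Silica + ATL-III over Control. Npc2, which hands cholesterol to Npc1, had 238, 238 and 179 FPKM in Silica + ATL-III, 338, 178 and 258 FPKM in Silica, and 159, 120.1 and 147 FPKM in Control. Silica + ATL-III and Silica overlapped and lay above Control. Npc2 had a log2 fold change of 0.97 ± 0.23, adjusted p = 0.017 in Silica over Control, -0.23 ± 0.23, adjusted p = 0.5 (not called) in Silica + ATL-III over Silica and 0.74 ± 0.23, adjusted p = 0.046 in Silica + ATL-III over Control. Grn, progranulin, a secreted and lysosomal glycoprotein, had 20.8, 19.1 and 16.9 FPKM in Silica + ATL-III, 27.3, 18.5 and 25.8 FPKM in Silica, and 12.7, 13.7 and 14.0 FPKM in Control. Its Silica + ATL-III libraries overlapped Silica, and every silica-treated library lay above Control. The log2 fold change of Grn was 0.94 ± 0.15, adjusted p = 0.0033 in Silica over Control, -0.32 ± 0.15, adjusted p = 0.15 (not called) in Silica + ATL-III over Silica and 0.61 ± 0.15, adjusted p = 0.017 in Silica + ATL-III over Control. The calls over Control in Silica + ATL-III were lost for Psap without Silica + ATL-III 1, Silica + ATL-III 2, Silica + ATL-III 3, Silica 3, Control 1, Control 2 or Control 3 (adjusted p up to 0.11), for Npc2 without Silica + ATL-III 1, Silica + ATL-III 2, Silica 3, Control 1, Control 2 or Control 3 (adjusted p up to 0.16) and for Grn without Silica + ATL-III 1, Control 1 or Control 2 (adjusted p up to 0.069), and for all 3 under TPM scaling and limma. Those of Psap and Npc2 were also lost with library totals. Psap in Silica + ATL-III over Silica was lost without Silica + ATL-III 1, Silica + ATL-III 2, Silica + ATL-III 3, Silica 1 or Silica 3 (adjusted p up to 0.1), with limma and with only the 6 libraries. The call of Npc2 in Silica over Control was lost without Silica 1, Control 2 or Control 3 (adjusted p up to 0.067).

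Of the 6 membrane proteins, 3 rose in Silica over Control (50.0%, against 9.11% of all tested genes). The same 3 (Lamp1, Cd164 and Npc1) fell in Silica + ATL-III over Silica (50.0%, against 10.0%). Lamp1, one of the most abundant glycoproteins of the lysosome wall, had 253, 254 and 219.6 FPKM in Silica + ATL-III, 429, 263 and 381 FPKM in Silica, and 249, 229 and 249.9 FPKM in Control. The Silica libraries lay above the rest, Silica 2 only just, and Silica + ATL-III overlapped Control. For Lamp1 the log2 fold change was 0.67 ± 0.17, adjusted p = 0.026 in Silica over Control, -0.55 ± 0.17, adjusted p = 0.043 in Silica + ATL-III over Silica and 0.12 ± 0.17, adjusted p = 0.7 (not called) in Silica + ATL-III over Control. Lamp2, its relative, which also serves chaperone-mediated autophagy, had 86.9, 82.3 and 78.7 FPKM in Silica + ATL-III, 113, 87.1 and 94.8 FPKM in Silica, and 81.8, 80.4 and 80.5 FPKM in Control. The Silica libraries lay above both other groups by a small margin, and no comparison was called by edgeR with TMM (log2 fold change 0.39 ± 0.13, adjusted p = 0.062 in Silica over Control, -0.24 ± 0.13, adjusted p = 0.22 in Silica + ATL-III over Silica and 0.15 ± 0.13, adjusted p = 0.48 in Silica + ATL-III over Control). DESeq2 and edgeR without the filter called Lamp2 higher in Silica over Control. Cd164, a sialomucin, averaged 99.2 ± 6.78 FPKM in Silica + ATL-III, 139 ± 17.3 FPKM in Silica and 109.6 ± 1.56 FPKM in Control, with log2 fold changes of 0.44 ± 0.13, adjusted p = 0.035 and -0.47 ± 0.13, adjusted p = 0.022 in Silica over Control and in Silica + ATL-III over Silica. Npc1, which moves cholesterol out of the lysosome, averaged 6.66 ± 0.296 FPKM in Silica + ATL-III, 9.38 ± 1.02 FPKM in Silica and 7.94 ± 0.212 FPKM in Control, with 0.34 ± 0.11, adjusted p = 0.049 in Silica over Control and -0.48 ± 0.11, adjusted p = 0.0099 in Silica + ATL-III over Silica.
None of the 3 membrane calls in Silica over Control was kept without Silica 1, Silica 3 or any 1 Control library (adjusted p up to 0.092 for Lamp1, 0.12 for Cd164 and 0.15 for Npc1), and they were lost under TPM scaling and limma. Those of Cd164 and Npc1 were also lost with library totals. The Npc1 call was lost too without Silica + ATL-III 1 or Silica + ATL-III 2, without the filter, with only the 6 libraries and with the replicate block. In Silica + ATL-III over Silica, Npc1 kept its call throughout, Cd164 lost it without Silica + ATL-III 2, Silica 1 or Silica 3 (adjusted p up to 0.07) and with only the 6 libraries, and Lamp1 without any library except Silica 2 (adjusted p up to 0.15), with limma, with only the 6 libraries and with the replicate block. Scarb2, the receptor that carries glucocerebrosidase to lysosomes, averaged 64.6 ± 13.9 FPKM in Silica + ATL-III, 72.9 ± 6.65 FPKM in Silica and 67.9 ± 5.27 FPKM in Control, and Mcoln1, the calcium channel TRPML1, 5.23 ± 0.0656 FPKM in Silica + ATL-III, 5.13 ± 0.704 FPKM in Silica and 6.08 ± 0.503 FPKM in Control. Neither passed in any comparison by edgeR with TMM, and TPM scaling called Mcoln1 lower in Silica over Control and in Silica + ATL-III over Control. That scaling called 3451 and 5339 of the 15459 tested genes lower in the same comparisons.

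Within the TFEB family, Mitf rose after silica and Tfeb and Tfe3 were not called. Mitf, best known from melanocytes and osteoclasts, had 4.27, 3.08 and 3.48 FPKM in Silica + ATL-III, 6.14, 5.05 and 5.22 FPKM in Silica, and 3.09, 3.51 and 3.82 FPKM in Control. The Silica libraries lay above all others, and Silica + ATL-III overlapped Control. Its log2 fold change was 0.76 ± 0.15, adjusted p = 0.0085 in Silica over Control, -0.58 ± 0.15, adjusted p = 0.017 in Silica + ATL-III over Silica, lost without Silica + ATL-III 2 or Silica 1 (adjusted p up to 0.073), and 0.18 ± 0.15, adjusted p = 0.47 (not called) in Silica + ATL-III over Control. Tfeb, the factor studied most for lysosome gene control, had 2.04, 2.36 and 2.95 FPKM in Silica + ATL-III, 2.15, 2.70 and 2.01 FPKM in Silica, and 2.15, 2.42 and 1.57 FPKM in Control. All 3 groups overlapped, with log2 fold changes of 0.26 ± 0.19, adjusted p = 0.37 in Silica over Control and 0.12 ± 0.19, adjusted p = 0.69 in Silica + ATL-III over Silica. Tfe3 had 3.23, 3.54 and 3.20 FPKM in Silica + ATL-III, 2.59, 2.92 and 2.95 FPKM in Silica, and 3.40, 3.28 and 2.76 FPKM in Control. Its Silica + ATL-III libraries lay above Silica, at a log2 fold change of 0.26 ± 0.11, adjusted p = 0.12, and Silica and Control overlapped (-0.06 ± 0.11, adjusted p = 0.73). Neither was called in Silica + ATL-III over Control (log2 fold change 0.38 ± 0.19, adjusted p = 0.21 for Tfeb and 0.20 ± 0.11, adjusted p = 0.26 for Tfe3). Of the family's summed FPKM, Mitf made up 38.4% ± 5.58 in Silica + ATL-III, 51.7% ± 4.57 in Silica and 40.2% ± 5.85 in Control, and Tfeb 26.1% ± 4.63, 21.6% ± 3.21 and 23.5% ± 3.71 in the same groups (SD, n = 3 each). Whether the proteins were in the nucleus is not measured by transcript levels. Silica 2 had the lowest Mitf share of its group (47.3%), next to the highest of Control (46.9%).

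A further list held 24 genes that place TFEB at the lysosome or release it. In Silica over Control 8 rose (33.3%, against 9.11% of all tested genes) and 2 fell (8.33%, against 7.81%). With ATL-III, 2 rose in Silica + ATL-III over Silica (8.33%, against 11.2%) and 8 fell (33.3%, against 10.0%). In Silica + ATL-III over Control 3 rose and 3 fell (12.5% each, against 9.14% and 6.71%). The share that fell after silica and the shares that rose with ATL-III stood near those over all genes. Tfec, the remaining relative of TFEB, found in macrophages, had 2.37, 2.38 and 3.25 FPKM in Silica + ATL-III, 5.16, 4.16 and 4.88 FPKM in Silica, and 1.69, 1.99 and 1.48 FPKM in Control. The 3 groups did not overlap, and the log2 fold change was 1.56 ± 0.17, adjusted p = 0.00036 in Silica over Control, -0.81 ± 0.17, adjusted p = 0.0063 in Silica + ATL-III over Silica and 0.75 ± 0.18, adjusted p = 0.012 in Silica + ATL-III over Control (lost without Control 3, adjusted p = 0.061). Fnip2, a partner of folliculin in the Rag pathway, averaged 3.88 ± 0.523 FPKM in Silica + ATL-III, 5.45 ± 0.749 FPKM in Silica and 2.83 ± 0.101 FPKM in Control and rose in Silica over Control (1.05 ± 0.14, adjusted p = 0.0011). Zkscan3, a repressor of lysosome genes in cultured cells, averaged 23.8 ± 1.46 FPKM in Silica + ATL-III, 21.5 ± 3.65 FPKM in Silica and 37.7 ± 3.87 FPKM in Control. It fell in Silica over Control (-0.71 ± 0.12, adjusted p = 0.0046) and in Silica + ATL-III over Control (-0.54 ± 0.12, adjusted p = 0.011). In Silica + ATL-III over Silica, Ppp3ca (-0.65 ± 0.13, adjusted p = 0.0047) and Ppp3cb (-0.41 ± 0.10, adjusted p = 0.011), catalytic subunits of calcineurin, which dephosphorylates TFEB, fell besides Tfec. Ppp3ca also fell in Silica + ATL-III over Control (-0.53 ± 0.13, adjusted p = 0.015), lost without Silica + ATL-III 1 or Control 2 (adjusted p up to 0.074). The count that rose after silica was 4 without Silica 1 or Control 3 and 5 without Silica 3, Control 1 or Control 2, and the count that fell was 1 without Silica 3 or Control 3. In Silica + ATL-III over Silica the count that fell was 3 without Silica 1, 4 without Silica 3 and 5 without Silica + ATL-III 1 or 2. The 2 that rose there became 0 without Silica + ATL-III 1, Silica + ATL-III 2, Silica 1 or Silica 3, and 1 without Silica 2 or any 1 Control library. In Silica + ATL-III over Control, 1 of the 3 increases was left without Silica + ATL-III 1 or any 1 Control library, and 1 of the 3 decreases without Silica + ATL-III 1.

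Further genes listed as lysosomal, outside the 42, were counted by the same test. Where their proteins sit in the cell was not measured. Of 31 other hydrolases and cofactors tested, 16 rose (51.6%, against 9.11% of all tested genes) and none fell in Silica over Control. The same list had 2 that rose (6.45%, against 11.2%) and 7 that fell (22.6%, against 10.0%) in Silica + ATL-III over Silica. Over Control, 5 rose (16.1%, against 9.14%) in Silica + ATL-III over Control. Dpp7 (1.16 ± 0.17 on the log2 scale), a dipeptidyl peptidase, and Galc (0.79 ± 0.14), galactosylceramidase, were among the increases after silica. In Silica + ATL-III over Silica, Hyal2, a hyaluronidase, rose (0.68 ± 0.11) and Arsb, arylsulfatase B, fell (-0.79 ± 0.15). Hyal2 (0.45 ± 0.11, lost without Silica + ATL-III 2 or Control 1, adjusted p up to 0.066) and Neu3 (0.76 ± 0.21, lost without Silica + ATL-III 1, Silica + ATL-III 2, Control 1 or Control 2, adjusted p up to 0.11) were among the increases in Silica + ATL-III over Control. The 16 became 7 without Silica 1, 10 without Silica 3 or Control 1, 9 without Control 2 and 6 without Control 3. The 7 became 16 without Silica 2. The 5 became 1 without Control 1, 2 without Silica + ATL-III 1, Silica + ATL-III 2 or Control 2 and 3 without Control 3. The 2 that rose in Silica + ATL-III over Silica became 1 without Silica + ATL-III 1, Silica + ATL-III 2, Silica 1, Silica 3 or Control 1.
Of 32 other membrane and transport genes tested, 14 rose (43.8%) and none fell in Silica over Control. There were 2 that rose (6.25%) and 8 that fell (25.0%) in Silica + ATL-III over Silica, and 6 rose (18.8%) in Silica + ATL-III over Control, against the same shares over all genes. Mcoln3 had 5.90, 5.29 and 7.00 FPKM in Silica + ATL-III, 18.3, 11.2 and 19.4 FPKM in Silica, and 4.37, 4.17 and 4.73 FPKM in Control. This relative of Mcoln1 rose in Silica over Control (1.99 ± 0.20, adjusted p = 0.00021) and fell in Silica + ATL-III over Silica (-1.42 ± 0.20, adjusted p = 0.0007), while Mcoln1 passed in neither. Cd68, a macrophage lysosome glycoprotein that is also on the macrophage list, and Mfsd12, a cysteine transporter, rose after silica as well (2.23 ± 0.25 and 1.41 ± 0.18). Mcoln2 fell in Silica + ATL-III over Silica (-1.96 ± 0.32) and Sidt2, linked to RNA uptake by lysosomes, rose (0.76 ± 0.14). Slc15a3 (1.28 ± 0.19), a peptide transporter, Cd68 (1.41 ± 0.25) and Litaf (1.31 ± 0.24) had the smallest p in Silica + ATL-III over Control. The 14 became 9 without Control 3, and the 8 became 5 without Silica + ATL-III 2, Silica + ATL-III 3, Silica 1 or Silica 3.
Of 8 other V-ATPase subunits tested, 2 rose (25.0%, against 9.11% of all tested genes) and none fell in Silica over Control. They were Tcirg1, above, and Atp6v1g1 (0.76 ± 0.15), a subunit of the peripheral stalk. The median log2 fold change of the 8 was -0.12 there, and 5 lay below 0. Atp6v1g1 also rose in Silica + ATL-III over Control (0.82 ± 0.15), as 1 of 8 (12.5%, against 9.14%). In Silica + ATL-III over Silica 1 rose and 1 fell (12.5% each, against 11.2% and 10.0%). These shares with ATL-III stood near those over all genes. Tcirg1 fell in Silica + ATL-III over Silica, and Atp6v0a4, the a4 isoform of kidney, rose (1.28 ± 0.38, adjusted p = 0.034, lost without Silica + ATL-III 1 or 2 or any 1 Silica library, adjusted p up to 0.12). Of 12 cathepsins tested, 9 rose (75.0%) and none fell in Silica over Control, 7 fell (58.3%) and none rose in Silica + ATL-III over Silica, and 6 rose (50.0%) in Silica + ATL-III over Control. Ctsk, a collagen-degrading cathepsin, had 92.8, 62.7 and 83.2 FPKM in Silica + ATL-III, 459, 203 and 322 FPKM in Silica, and 20.3, 18.4 and 16.9 FPKM in Control, above each of the 42 genes in fold change (log2 4.26 ± 0.29 in Silica over Control and -2.04 ± 0.26 in Silica + ATL-III over Silica). The 7 became 4 without Silica + ATL-III 2.

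By edgeR with TMM on all 9 libraries, the calls of the 42 genes fell into 6 combinations. How often all tested genes showed each combination was not counted, so the combinations are not shown to be particular to the 42 genes. In 14 genes an increase after silica went with a decrease in Silica + ATL-III over Silica and no call over Control, among them Lipa, Lgmn, Atp6ap2, Atp6v1c1 and Mitf. In 4 genes, Acp5, Atp6v0d2, Gla and Psap, the decrease left a level that was still called higher than Control. In 5 genes, Atp6v0c, Atp6v0d1, Atp6v1b2, Grn and Npc2, both silica groups were called higher than Control, with no call between them. Another 5, Atp6v0b, Atp6v0e, Atp6v1d, Atp6v1e1 and Neu1, were called only in Silica over Control. Some missing calls over Control depended on the fit. With only the 6 libraries compared, edgeR called Lgmn, Atp6v1c1, Gusb, Hexa, Atp6v1d, Atp6v1e1, Neu1 and Ppt1 higher in Silica + ATL-III over Control. Without the filter it called Atp6v0e, Gusb, Hexa and Smpd1 higher there. Atp6v0a1 was called higher in Silica + ATL-III over both other groups, and 13 genes were called in no comparison by edgeR with TMM. DESeq2 called 4 of these, Atp6v1f, Glb1, Lamp2 and Ppt1, higher in Silica over Control. All 18 genes that fell in Silica + ATL-III over Silica were among the 28 that rose in Silica over Control, and the Silica libraries enter both counts. A missing call does not show that groups were alike.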

How the data were processed

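Lung poly(A) RNA of 9 libraries was sequenced, per the labels' protocols. Per the file headers, the deposited table holds whole-number counts for each gene and library and the authors' FPKM. The FPKM follow from counts, exonic length and column totals for 100% of values within 0.006. HTSeq 0.6.1, HISAT2 2.0.1, cutadapt 1.9.1 and the mm10 build appear, with no role given, in the submitters' processing notes. Annotation release and strand setting are not given in the sources used here. Reads from overlapping or antisense genes therefore cannot be told apart. Table columns were matched to samples by group initial and number, and 0 such columns were left out.

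The counts of all 9 libraries were fitted in 1 edgeR quasi-likelihood model (edgeR 4.0.16, R 4.3.3) of 3 group means with TMM scaling and no covariate. The test covered the 15459 genes that reached 1 FPKM in 3 or more libraries, with Benjamini-Hochberg adjustment over all of them and a threshold of 0.05. Dividing the log2 fold change by the root of F gave its SE. Deposited FPKM carry no TMM scaling, so their ratio can differ from the fold change. Alternatives were library totals, TPM and DESeq2 size factors as scaling, DESeq2 1.42.0, limma 3.58.1 on log2(FPKM + 0.5), 0.1 or 1, no filter, only the 6 libraries compared, a replicate block and leaving out each library. The fitting code was tested on simulated counts. No batch is labelled, and no pair of libraries agreed within sampling noise, with a chi-square of at least 6.44 per degree of freedom.

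The 42 genes and all lists were chosen with earlier results of these data known. Values per library are given for the 8 called genes with the largest fold change in each comparison and always for Atp6v0d1, Atp6v0d2, Lamp1, Lamp2, Acp5, Lgmn, Grn, Tfeb, Tfe3 and Mitf. From other lists the 3 called genes with the smallest p per comparison, and all of a list of 5 or fewer, are eligible; not all are described. Marker genes named, and values per library of Tcirg1, Tfec, Mcoln3, Ctsk, Dcstamp and Mmp9, and Mcoln1 and Man2b1 under TPM scaling, were chosen after their values were seen. Chromosomes are as deposited. Deposited start positions equalled those of GENCODE M21 for 1499 of 52083 shared genes (2.88%), so none are printed. Promoter coordinates are those of GRCm38.p6 in RefSeq.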

Additional observations from a re-analysis of the deposited data

How the results depend on the processing

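The increases in Silica over Control numbered 28, and 19 to 35 when 1 library was left out. Over all tested genes they numbered 1408, and 528 to 2063 when 1 was left out. TPM scaling called 2 lower there, against 0, and 3451 of all 15459 tested genes, against 1207. The decreases in Silica + ATL-III over Silica numbered 18, and 9 to 28 when 1 library was left out. Over all tested genes these decreases numbered 1553, and 826 to 1947 when 1 was left out. The increases in Silica + ATL-III over Control, 10 by the edgeR test with TMM, were 6 with library totals as the scaling, 4 with TPM scaling, 4 with limma on log2(FPKM + 0.5), 4 with log2(FPKM + 0.1) and 4 with log2(FPKM + 1). They were 18 with only the 6 libraries compared and 4 to 15 when 1 library was left out. Over all tested genes the same fits gave 1413, 1067, 779, 958, 948, 966 and 1644 increases, and 891 to 1694 when 1 was left out. TPM scaling called 3 lower there, against 0. No fold change that was called turned its direction under any alternative. Over all tested genes, the share of calls that were increases was 53.8%, 52.6% and 57.6% in Silica over Control, Silica + ATL-III over Silica and Silica + ATL-III over Control. It was 33.0%, 46.0% and 34.6% with library totals and 17.4%, 29.8% and 12.7% with TPM scaling, which moved the median gene to -0.20, -0.12 and -0.31. The cause was not tested.

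Deviations from group means had correlations of -0.11 to 0.08 between same-numbered libraries and -0.10 to 0.12 between different-numbered ones. Between Silica and Control they were 0.07 to 0.08 for the same number and -0.10 to 0.03 for different numbers. Same-numbered correlations that involve Silica + ATL-III were -0.11 to -0.01. With 3 libraries per group these values cannot exclude a pairing by number. With the number as a replicate block, 26 rose in Silica over Control, 16 fell and 1 rose in Silica + ATL-III over Silica, and 10 rose in Silica + ATL-III over Control. With 3 libraries per group, 14, 23 and 32 genes without a call in these comparisons may still differ by less than the spread allowed the test to see.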
